A study of Homo sapiens with 10 samples.

Results

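DPP was compared with vehicle in differentiating neurospheres of ReNcell VM, an immortalised line of human neural progenitor cells. The comparison uses 4 of the 10 RNA-seq libraries of the series, 2 labelled DPP and 2 labelled VC, and covers every gene of the count table. Vehicle medium held 0.1% DMSO, and DPP was given at 100 µM, with no full chemical name in the labels. The design text of the series speaks of DEP and of linear di-n-alkyl phthalates, and asks whether such compounds disturb the development of neurons in culture. Spheres were formed for 4 days from 8000 cells per well in growth medium with EGF and bFGF, then plated on laminin and differentiated for 6 days in medium with N-2 supplement. Medium and substance were renewed every 2 days. Each library is a pool of 6 neurospheres, prepared with an exome capture kit. Whether replicate libraries are separate cultures is not said, so p values measure only the spread between these libraries, which may be technical. Libraries of DEP and of DProP, at the same 100 µM and 6 days, were used for direct comparisons whose contrast leaves the vehicle libraries out. The last 2 libraries, labelled Mix, were also at 100 µM and 6 days. All 10 libraries entered the fit that gave the p values.

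When growth factors are withdrawn, neural progenitors leave the cell cycle and become neurons or glia. Notch signalling and the SOX2 programme hold cells as progenitors, while proneural basic helix-loop-helix factors such as those of the NEUROG and NEUROD families switch on neuronal genes. Newly formed neurons then make the tubulins, microtubule proteins and RNA-binding proteins that go with neurite growth. EGF and FGF receptors act in the opposite sense through the RAS and MAPK pathway, whose output can be read from its immediate early and feedback genes.

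The markers matched the label of a differentiating neural culture. Vehicle libraries held the neuronal genes TUBB3 (713 and 707 CPM, counts scaled to a common library size) and DCX (181 and 173), the progenitor genes SOX2 (991 and 970.1) and VIM (2702 and 2678), and the glial gene GFAP (4769 and 4549.5). None of the 11 microglia genes had enough counts for a test, and AIF1, PTPRC and ITGAM had no count in these 4 libraries. The endothelial genes PECAM1 and FLT1 and the fibroblast gene DCN also had none. Other members of these lists were measured. Enough counts for a test were found for 7 of 11 endothelial, 9 of 11 fibroblast and 10 of 11 mural cell genes.

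Totals ran from 60695361 to 70127862 counts in the 4 libraries. Both vehicle libraries differed from the 8 treated libraries of the series in features that no treatment label names. MALAT1, a nuclear long non-coding RNA (lncRNA), took 0.946% to 1.25% of the vehicle counts and 0.342% to 0.389% of the DPP counts. Protein-coding genes of the mitochondrial genome took 0.0255% and 0.0343% of the vehicle counts and 0.0867% and 0.107% of the DPP counts. A count was found for 21500 and 21603 genes under vehicle and for 23180 and 23375 under DPP. Every comparison with vehicle rests on these libraries, so an effect of DPP and a difference in how the vehicle libraries were made cannot be told apart there.

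A large share of the genes measured differed between DPP and vehicle. Of 19465 genes tested, 3256 were called higher and 3793 lower at an adjusted p under 0.05 (edgeR's quasi-likelihood test with Benjamini-Hochberg adjustment, used for every adjusted p below), together 36.2% of the genes. The share called was 16.7% for higher genes and 19.5% for lower genes, and it is the background for the counts of list members below. A change past 2-fold was measured for 1086 of the higher and 647 of the lower genes, together 8.9%. The median log2 fold change of all genes was 0.02, and the 95% interval of a gene reached 0.26 to each side in the median. The split depended on the scaling. With library size alone in place of TMM factors, the median of all genes moved up by 0.16 and 5820 genes were higher and 2200 lower, so that 72.6% of the calls were increases in place of 46.2%. Without DPP library 2, 4343 genes were called. Of the called genes, 69.98% (4933 of 7049) lay farther from the vehicle mean in DPP library 2 than in DPP library 1.

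**Figure D1:**
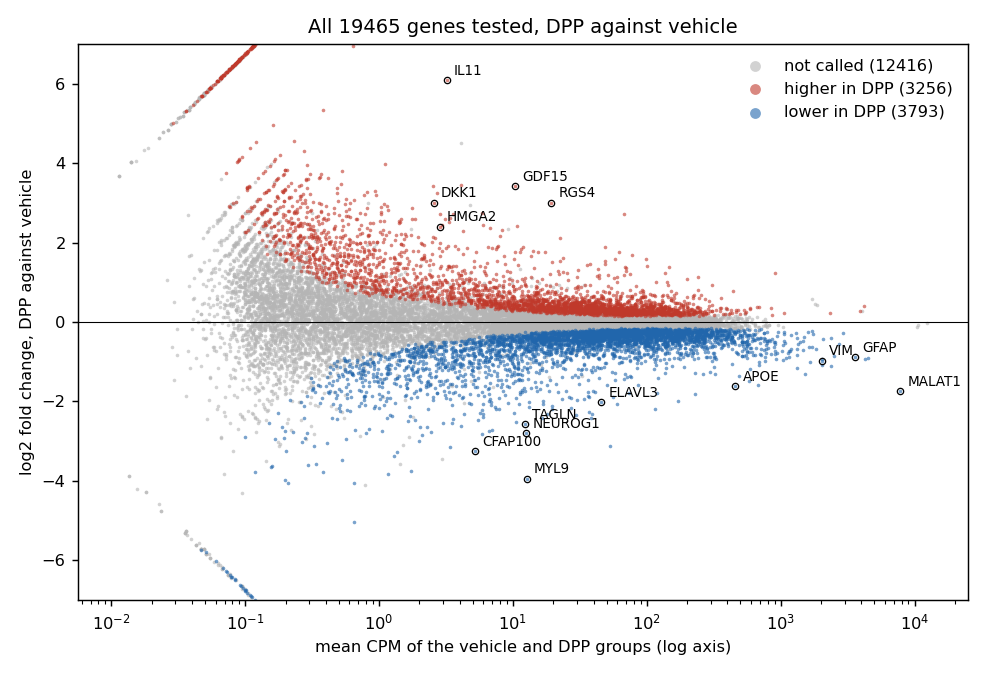
Each point is one of the 19465 genes tested, with the mean CPM of both groups on a log axis and the log2 fold change of DPP against vehicle, coloured by call. Named genes such as ELAVL3 and MYL9 lie below 0 and IL11 and GDF15 above it, and 124 genes with fitted changes beyond the axis, 123 of them without a count in a group, are not drawn.

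Proneural transcription factors were lower under DPP. Of 26 tested, 17 were lower and 0 higher, with a median log2 fold change of -1.01 against 0.02 for all genes. The neurogenic factor NEUROG1 had 23 and 20.6 CPM in the vehicle libraries and 4.44 and 1.77 CPM in the DPP libraries (log2 fold change -2.81 ± 0.42, adjusted p = 0.00227). NEUROD1, which acts after it in the same cascade, had 14.1 and 11.8 CPM in the vehicle libraries and 3.1 and 2.6 CPM in the DPP libraries (log2 fold change -2.18 ± 0.17, adjusted p = 4.21e-06). Both DPP libraries lay below both vehicle libraries for these genes, as they did for 32.9% of all genes tested (and above them for 34.8%), and DPP library 2 was the lower of the pair. NHLH1, a helix-loop-helix factor of newborn neurons, had 93.8 and 98.6 CPM in the vehicle libraries and 27.4 and 18.3 CPM in the DPP libraries (log2 fold change -2.07 ± 0.21, adjusted p = 0.000291). The zinc finger genes of early neuronal commitment were lower too: INSM1 had 54 and 57.5 CPM under vehicle and 19 and 14 CPM under DPP, and MYT1 32.8 and 31 CPM under vehicle and 8.51 and 5.42 CPM under DPP (log2 fold changes -1.76 ± 0.13 and -2.19 ± 0.18, adjusted p = 6.78e-06 and 1.51e-05). ST18, of the same zinc finger family as MYT1, had 61.5 and 54.5 CPM under vehicle and 18.1 and 13.2 CPM under DPP (log2 fold change -1.89 ± 0.13, adjusted p = 4.92e-06). SOX11, which sustains the neuronal programme, had 1000.3 and 878 CPM under vehicle and 455 and 428 CPM under DPP (log2 fold change -1.09 ± 0.079, adjusted p = 3.67e-06). Of the 17 lower factors, 16 lay farther from vehicle in DPP library 2.

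Pan-neuronal markers followed the same direction in 24 of 32 members, with 2 higher and a median of -0.77. In bulk libraries, fewer neurons and less of these RNAs per neuron cannot be told apart. Neuronal tubulin TUBB3 had 713 and 707 CPM in the vehicle libraries and 315 and 234 CPM in the DPP libraries (log2 fold change -1.37 ± 0.13, adjusted p = 6.78e-05). The microtubule-binding protein of migrating neurons, DCX, had 181 and 173 CPM in the vehicle libraries and 78.3 and 55.3 CPM in the DPP libraries (log2 fold change -1.4 ± 0.13, adjusted p = 5.89e-05). STMN2, a tubulin-binding protein of growth cones, had 109 and 117 CPM under vehicle and 39.8 and 26.3 CPM under DPP (log2 fold change -1.78 ± 0.18, adjusted p = 0.000182). For all 3, the groups were separated by far more than the gap within a group. ELAVL3, one of the neuronal RNA-binding proteins known as Hu proteins, had 71.8 and 74.2 CPM in the vehicle libraries and 21 and 14.9 CPM in the DPP libraries (log2 fold change -2.02 ± 0.13, adjusted p = 3.86e-06), and its relative ELAVL4 had 21.9 and 20.8 CPM under vehicle and 6.35 and 3.29 CPM under DPP (log2 fold change -2.14 ± 0.27, adjusted p = 0.000455). The intermediate filament gene INA had 98.9 and 105 CPM under vehicle and 40.7 and 38 CPM under DPP (log2 fold change -1.37 ± 0.085, adjusted p = 1.78e-06), and the synaptic fusion protein SNAP25 had 22.3 and 21.3 CPM under vehicle and 8.58 and 6.62 CPM under DPP (log2 fold change -1.52 ± 0.14, adjusted p = 1.31e-05). MAP2, a dendritic microtubule protein, had 903 and 837 CPM under vehicle and 621 and 636 CPM under DPP (log2 fold change -0.47 ± 0.06, adjusted p = 0.000124). Not every neuronal gene fell. The neurofilament light chain NEFL had 18.7 and 17.6 CPM under vehicle and 29.6 and 34.3 CPM under DPP (log2 fold change 0.82 ± 0.098, adjusted p = 8.19e-05), and GAP43, a growth cone protein, had 71.2 and 66.4 CPM under vehicle and 94.6 and 94.9 CPM under DPP (log2 fold change 0.46 ± 0.087, adjusted p = 0.00167). SYT1, the calcium sensor of synaptic vesicles, was not called at -0.09 (adjusted p = 0.325). It was 0.070 with library size alone, and was called lower with a correction for GC content and length (-0.155). Of the 26 called members, 22 lay farther from vehicle in DPP library 2.

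**Figure D2:**
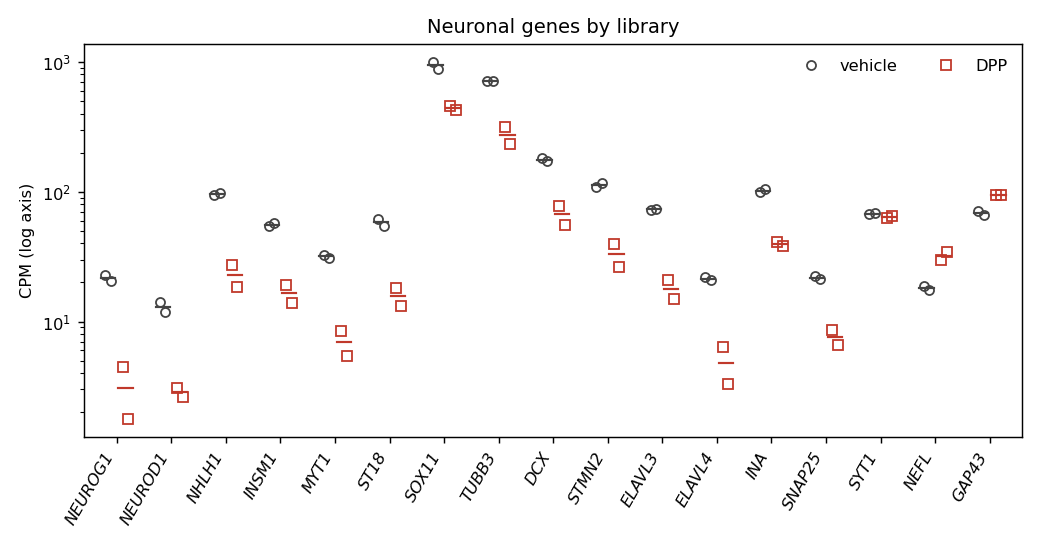
CPM on a log axis of 17 neuronal genes in each vehicle library (circles) and DPP library (squares), with a line at each group's mean. For 14 genes both squares lie below both circles, for NEFL and GAP43 above them, and for SYT1 the change was not called.

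Genes of the structures that neurons build were lower as well. Of 34 neurite cytoskeleton genes, 27 were lower and 1 higher, with a median of -0.53. Of 43 synaptic vesicle and postsynaptic genes, 22 were lower and 3 higher (median -0.47), with 1 higher and a median of -0.31 without DPP library 2. Axon guidance was divided, with 18 of 39 ligands and receptors lower and 7 higher (median -0.23). With library size alone 12 of them were lower and 11 higher (median -0.07), and with the GC and length correction the median was -0.09. ROBO3, the receptor that lets commissural axons cross the midline, had 364 and 346 CPM under vehicle and 117 and 83.9 CPM under DPP (log2 fold change -1.82 ± 0.16, adjusted p = 8.11e-05). DRAXIN, a secreted repellent of commissural axons, had 50.5 and 48.6 CPM under vehicle and 12.5 and 7.03 CPM under DPP (log2 fold change -2.34 ± 0.37, adjusted p = 0.00425). Both DPP libraries were below both vehicle libraries for either gene.

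Progenitor and astrocyte genes were mostly lower as well. Of 25 progenitor markers, 18 were lower and 1 higher (median -0.42), and of 27 astrocyte markers 21 were lower and 3 higher (median -0.48). SOX2, the transcription factor of neural stem cells, had 991 and 970.1 CPM under vehicle and 653 and 593 CPM under DPP (log2 fold change -0.65 ± 0.065, adjusted p = 2.12e-05). The intermediate filament VIM had 2702 and 2678 CPM under vehicle and 1402 and 1338 CPM under DPP (log2 fold change -0.97 ± 0.069, adjusted p = 3.26e-06), and the fatty acid carrier of radial glia, FABP7, had 351 and 298 CPM under vehicle and 126 and 142 CPM under DPP (log2 fold change -1.28 ± 0.12, adjusted p = 2.43e-05). GFAP, the astrocyte filament, had 4769 and 4549.5 CPM under vehicle and 2755 and 2314 CPM under DPP (log2 fold change -0.88 ± 0.078, adjusted p = 1.05e-05). APOE, the lipoprotein that astrocytes secrete, had 663 and 723 CPM under vehicle and 266 and 186 CPM under DPP (log2 fold change -1.62 ± 0.18, adjusted p = 0.000373). All 5 were lower in both DPP libraries than in either vehicle library. CD44, a hyaluronan receptor of astrocyte precursors, moved the other way, with 184 and 163 CPM under vehicle and 269 and 288 CPM under DPP (log2 fold change 0.68 ± 0.067, adjusted p = 1.91e-05). With library size alone, 15 in place of 21 astrocyte markers were lower.

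Of 30 Notch receptors, ligands and targets, 17 were lower and 3 higher (median -0.31). The higher members became 1 without DPP library 2 or vehicle library 1, and 6 with library size alone. DLL3, a ligand made by cells that enter neuronal differentiation, had 31.9 and 31.3 CPM under vehicle and 8.66 and 5.8 CPM under DPP (log2 fold change -2.12 ± 0.21, adjusted p = 6.63e-05). Matrix genes of neural cells moved in both directions. The brain proteoglycan BCAN had 2106 and 2262 CPM under vehicle and 977 and 778 CPM under DPP (log2 fold change -1.32 ± 0.09, adjusted p = 3.16e-06), and tenascin TNR had 182 and 191 CPM under vehicle and 63.9 and 43.5 CPM under DPP (log2 fold change -1.8 ± 0.18, adjusted p = 0.000184). Of the 15 chondroitin proteoglycans and tenascins, 6 were lower and 4 higher, with 1 higher without DPP library 2 and 2 higher without vehicle library 1 or 2. CRABP1, a retinoic acid carrier, had 182 and 198 CPM under vehicle and 49.8 and 33.9 CPM under DPP (log2 fold change -2.18 ± 0.21, adjusted p = 0.000237). DPP library 2 was the lowest of the 4 libraries for each of these genes.

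Motile cilium genes were lower in 33 of 42 members and higher in 0, with a median of -0.78. Motile cilia carry the dynein arms and central pair that ependymal cells use to move fluid, and RFX factors and FOXJ1 switch on their genes. The radial spoke and axoneme genes are shown here with the X-box of their promoters, the motif that RFX factors bind, because 7 of 33 members with a RefSeq promoter held it (21.2%, 6 of them among the 25 called members) against 1.98% of 27305 promoters. The search covered the 250 bases before the start on both strands for GTNNCC and GNAAC with 3 bases of any kind between them. A match is a description of the letters and not evidence of binding. The sequences are RefSeq, GRCh38.p14, on the strand of the gene and 5′ to 3′, with the match in capitals.
CFAP45, chr1:159900166-159900214, minus strand: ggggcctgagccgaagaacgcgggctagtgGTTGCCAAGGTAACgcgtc
SPAG6, chr10:22345442-22345495, plus strand: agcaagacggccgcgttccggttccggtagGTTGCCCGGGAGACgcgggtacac
SPAG16, chr2:213284250-213284323, plus strand: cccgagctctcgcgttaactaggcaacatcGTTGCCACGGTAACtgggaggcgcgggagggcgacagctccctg
RSPH9, chr6:43644855-43644928, plus strand: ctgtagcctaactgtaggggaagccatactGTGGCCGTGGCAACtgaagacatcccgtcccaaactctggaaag
DNAH11, chr7:21542981-21543038, plus strand: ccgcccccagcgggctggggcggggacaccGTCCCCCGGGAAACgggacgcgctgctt
The matches begin 19, 24, 184, 151 and 28 bases before the start of CFAP45, SPAG6, SPAG16, RSPH9 and DNAH11. In SPAG6 the match is to the reverse complement of the motif.

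CFAP45, a protein inside ciliary microtubules, had 18.3 and 18.4 CPM in the vehicle libraries and 6.19 and 5.48 CPM in the DPP libraries (log2 fold change -1.65 ± 0.16, adjusted p = 2.06e-05). SPAG6 of the central pair had 4.63 and 3.19 CPM under vehicle and 0.53 and 0.727 CPM under DPP (log2 fold change -2.64 ± 0.28, adjusted p = 3.32e-05), and SPAG16 97.1 and 86.4 CPM under vehicle and 67.3 and 66.8 CPM under DPP (log2 fold change -0.45 ± 0.077, adjusted p = 0.000826). DNAH11, a heavy chain of the outer dynein arm, had 55 and 52.4 CPM under vehicle and 22.3 and 16.7 CPM under DPP (log2 fold change -1.46 ± 0.12, adjusted p = 7.18e-06). The radial spoke gene RSPH9 had 6.48 and 3.93 CPM under vehicle and 2.3 and 2.04 CPM under DPP (log2 fold change -1.26 ± 0.26, adjusted p = 0.00314). For these 5 genes the groups did not overlap. CFAP100, a cilium gene outside the list, had 9.99 and 8.75 CPM under vehicle and 1.19 and 0.772 CPM under DPP (log2 fold change -3.25 ± 0.25, adjusted p = 4.79e-06). FOXJ1 itself had 104 and 117 CPM under vehicle and 71.1 and 45.4 CPM under DPP (log2 fold change -0.92 ± 0.19, adjusted p = 0.00855), and was not called without vehicle library 2 (-0.83) or in a fit of the 2 groups (-0.919). SPAG17 had 22 and 19 counts under vehicle and 0 in both DPP libraries, which is at least 15.8-fold lower at a floor of 3 counts over the group. Without DPP library 2, 22 in place of 33 members were lower.

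Smooth muscle contractile genes were lower in 13 of 23 members, with 1 higher and a median of -0.45. MYL9, a myosin light chain, had 25.5 and 22 CPM in the vehicle libraries and 1.94 and 1.14 CPM in the DPP libraries (log2 fold change -3.94 ± 0.30, adjusted p = 1.18e-05), and TAGLN, an actin-binding protein of the same cells, had 21.2 and 20.6 CPM under vehicle and 3.78 and 3.24 CPM under DPP (log2 fold change -2.57 ± 0.13, adjusted p = 1.13e-06). The actin gene ACTA2 changed by -1.73 ± 0.13 (adjusted p = 4.54e-06). CCN1 and CCN2, matrix genes switched on by YAP and by serum response factor, changed by -1.26 ± 0.12 and -1.29 ± 0.10 (adjusted p = 1.86e-05 and 6.78e-06). The list of YAP and TEAD targets was divided, with 4 of 28 higher and 7 lower (median -0.04). With library size alone, 9 were higher and 5 lower (median 0.12). Genes of other cell types were called in part. For the endothelial list the share called was 28.6%, against 36.2% of all genes, and mural and fibroblast genes went both ways. The 10 tested mural cell genes (2 higher, 4 lower) summed to 607.7 and 639 CPM under vehicle and 453 and 405 CPM under DPP. The 7 tested endothelial genes (0 higher, 2 lower) summed to 49.1 and 53.6 CPM under vehicle and 17.8 and 9.27 CPM under DPP, with CLDN5, a tight junction gene, at 42.3 and 46.4 CPM under vehicle and 13.5 and 6.18 CPM under DPP, a change not called in a fit of the 2 groups. The mural genes lower became 2 without DPP library 2, and those higher 1 without it and 0 without vehicle library 1. The 9 tested fibroblast genes (2 higher, 3 lower, and 1 higher with DESeq2) summed to between 107 and 132 CPM in the 4 libraries. The part of such cells in the result was not tested.

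Genes of the RAS and MAPK pathway went the other way. Of 27 EGFR ligands and MAPK feedback genes, 15 were higher and 6 lower (median 0.49), and of the 12 FOS and JUN genes of the AP-1 factor, 8 were higher and 0 lower (median 0.59). The first of these lists also counts the cytokine gene IL11, described below. HBEGF, a ligand of the EGF receptor, had 5.68 and 4.52 CPM in the vehicle libraries and 18 and 16.6 CPM in the DPP libraries (log2 fold change 1.76 ± 0.14, adjusted p = 6.46e-06). DUSP4, a phosphatase that turns ERK off, had 3.1 and 2.36 CPM under vehicle and 8.87 and 11.6 CPM under DPP (log2 fold change 1.9 ± 0.18, adjusted p = 1.79e-05), and SPRY4, a feedback inhibitor of the pathway, had 8.62 and 8.57 CPM under vehicle and 16.7 and 21 CPM under DPP (log2 fold change 1.13 ± 0.14, adjusted p = 0.000108). Each DPP library was above each vehicle library for these 3 genes. The ETS factor ETV5 had 24.3 and 28.1 CPM under vehicle and 53.2 and 63.1 CPM under DPP (log2 fold change 1.15 ± 0.13, adjusted p = 0.000112), and the neuropeptide precursor VGF had 0.876 and 0.9 CPM under vehicle and 3.84 and 3.01 CPM under DPP (log2 fold change 1.95 ± 0.24, adjusted p = 0.000103). The receptors themselves did not rise, since EGFR changed by -0.42 ± 0.068 and ERBB2 by -0.53 ± 0.06 (adjusted p = 0.000622 and 5.84e-05).

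FOSL1, a FOS relative that MAPK activity stabilises, had 1.63 and 2.11 CPM in the vehicle libraries and 8.83 and 11.4 CPM in the DPP libraries (log2 fold change 2.44 ± 0.19, adjusted p = 4.51e-06). FOS had 38.4 and 41.5 CPM under vehicle and 84.1 and 76.6 CPM under DPP (log2 fold change 1.01 ± 0.10, adjusted p = 3.28e-05), and JUNB changed by 1.55 ± 0.14 (adjusted p = 1.62e-05). Of 27 EGR, NR4A and other immediate early genes, 14 were higher and 7 lower (median 0.34). The zinc finger factor EGR2 had 2.85 and 3.85 CPM under vehicle and 16.4 and 19.5 CPM under DPP (log2 fold change 2.42 ± 0.16, adjusted p = 2.08e-06), EGR1 had 139.7 and 162 CPM under vehicle and 288 and 369.6 CPM under DPP (log2 fold change 1.12 ± 0.14, adjusted p = 0.000373), and the activity-regulated gene ARC changed by 2.12 ± 0.22 (adjusted p = 0.000126). The orphan nuclear receptor NR4A1 was lower, with 12.8 and 15.4 CPM under vehicle and 6.12 and 6.68 CPM under DPP (log2 fold change -1.14 ± 0.14, adjusted p = 8.37e-05). The 7 lower members became 3 without DPP library 2 and 4 without vehicle library 2.

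IL11, a cytokine of the IL-6 family, was near absent under vehicle (11 and 0 counts) and had 532 and 341 counts under DPP (log2 fold change 6.08 ± 0.88, adjusted p = 0.00145). Its promoter is shown for the AP-1 motif TGANTCA, which 3 of 19 promoters of the MAPK list held (15.8%, those of ERBB2, SPRED3 and IL11), against 6.6% of all promoters and 0 of 9 of the FOS and JUN list. The match, in capitals, begins 96 bases before the start.
IL11, chr19:55370523-55370589, minus strand: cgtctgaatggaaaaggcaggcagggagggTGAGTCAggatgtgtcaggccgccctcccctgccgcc

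**Figure D3:**
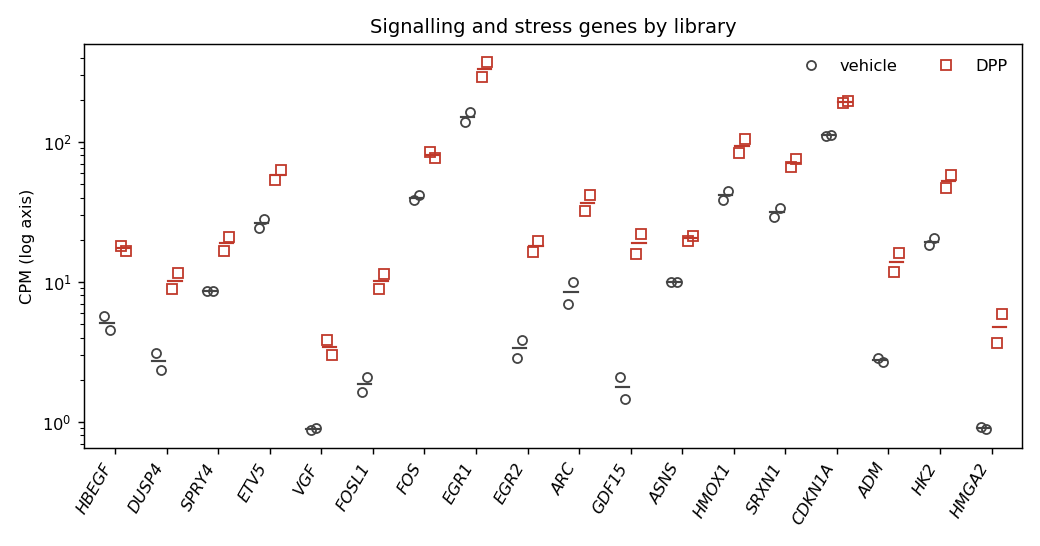
CPM on a log axis of 18 signalling and stress genes in each vehicle library (circles) and DPP library (squares), with a line at each group's mean. The 18 genes were picked among those called higher, and for each both squares lie above both circles. Lower members of the same lists, such as NR4A1, ATF4 and FTH1, are not drawn.

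Stress response genes rose in part. Of 36 genes of the integrated stress response, the programme that ATF4 runs when amino acids or protein folding fail, 17 were higher and 5 lower (median 0.23). GDF15, a secreted stress cytokine, had 2.08 and 1.46 CPM in the vehicle libraries and 15.9 and 22 CPM in the DPP libraries (log2 fold change 3.41 ± 0.23, adjusted p = 3.16e-06). Asparagine synthetase ASNS had 9.99 and 9.96 CPM under vehicle and 19.6 and 21.2 CPM under DPP (log2 fold change 1.03 ± 0.088, adjusted p = 7.95e-06). The mitochondrial enzymes PCK2 and MTHFD2 had 2.36 and 2.25 CPM under vehicle and 5.43 and 5.42 CPM under DPP and 11.3 and 11.6 CPM under vehicle and 23.1 and 30.1 CPM under DPP (1.23 ± 0.16 and 1.22 ± 0.12, adjusted p = 0.000146 and 1.62e-05). These 4 genes were higher in both DPP libraries. The glutamine carrier SLC1A5 changed by 1.22 ± 0.11 (adjusted p = 1.51e-05), and the pro-apoptotic factor DDIT3 by 0.86 ± 0.15 (adjusted p = 0.00105). ATF4 RNA itself was lower (-0.42 ± 0.056, adjusted p = 0.000182), as was PHGDH, the first enzyme of serine synthesis (-0.81 ± 0.094, adjusted p = 7.34e-05). Without DPP library 2, 11 in place of 17 members were higher, and without vehicle library 1 also 11.

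The C/EBP-ATF response element TGATGNAA, where ATF4 binds with a partner, was in 4 of 30 promoters of this list (13.3%) against 3.19% of all promoters, and 3 of those 4 genes were called higher. A pair is shown, with the match in capitals.
ASNS, chr7:97872439-97872506, minus strand: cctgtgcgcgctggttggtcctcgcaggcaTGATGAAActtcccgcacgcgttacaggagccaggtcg
CHAC1, chr15:40953232-40953299, plus strand: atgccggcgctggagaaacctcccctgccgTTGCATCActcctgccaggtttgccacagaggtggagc
The matches begin 68 and 209 bases before the start, and that of CHAC1 is to the reverse complement. CHAC1, which degrades glutathione, had 2.69 and 3.33 CPM under vehicle and 4.56 and 6.21 CPM under DPP (log2 fold change 0.84 ± 0.21, adjusted p = 0.00938). It was not called without vehicle library 1 (0.69) or without DPP library 2 (0.61).

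Antioxidant genes of the NFE2L2 pathway were divided, with 15 of 34 higher and 10 lower (median 0.15). Haem oxygenase HMOX1 had 38.5 and 44.5 CPM in the vehicle libraries and 82.7 and 105 CPM in the DPP libraries (log2 fold change 1.18 ± 0.12, adjusted p = 3.36e-05). Sulfiredoxin SRXN1, which repairs peroxiredoxins, had 29.2 and 33.7 CPM under vehicle and 66.4 and 75.5 CPM under DPP (log2 fold change 1.18 ± 0.088, adjusted p = 3.86e-06). GCLM, a subunit of the enzyme that starts glutathione synthesis, changed by 0.73 ± 0.11, thioredoxin reductase TXNRD1 by 0.61 ± 0.059 and NQO1, a quinone reductase, by 0.49 ± 0.073 (adjusted p = 0.000604, 1.89e-05 and 0.000384). The iron store FTH1 was lower, with 826 and 924 CPM under vehicle and 511 and 581 CPM under DPP (log2 fold change -0.68 ± 0.096, adjusted p = 0.000312). Without DPP library 2, 9 in place of 15 members were higher. The antioxidant element TGACNNNGC was in 5 of 24 promoters of the list (20.8%) against 11.03% of all promoters.

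Among 33 p53 targets and apoptosis genes, 16 were higher and 2 lower (median 0.20). CDKN1A, the inhibitor of cyclin-dependent kinases, had 111 and 111.6 CPM under vehicle and 189 and 195 CPM under DPP (log2 fold change 0.78 ± 0.06, adjusted p = 4.15e-06), and the pro-apoptotic PMAIP1 changed by 0.79 ± 0.12 (adjusted p = 0.000319). Of 14 metallothioneins and zinc exporters, 6 were higher and 2 lower, with 3 higher without vehicle library 2. MT2A had 69.1 and 92.9 CPM under vehicle and 189.6 and 237 CPM under DPP and MT1X 11.2 and 14.1 CPM under vehicle and 30.04 and 31.7 CPM under DPP (1.4 ± 0.18 and 1.29 ± 0.12, adjusted p = 0.000765 and 1.28e-05). Their near-identical copies can share reads, so the values of single members are uncertain. Heat shock genes had 6 higher and 6 lower members of 27, with 1 higher without DPP library 2 and 2 without vehicle library 1. HSPA6, a stress-inducible heat shock gene outside this list, had 0 and 1 counts under vehicle and 146 and 737 under DPP (adjusted p = 0.0211), and the DPP libraries differed widely from each other. It was not called without vehicle library 1 (adjusted p = 0.117), without vehicle library 2 (adjusted p = 0.103), with limma-voom or in a fit of the 2 groups. The pseudogene HSPA7, its near-identical copy, chosen after its values were seen, went from 1 to 170 counts over both libraries (adjusted p = 0.00134), and reads may be shared between them. Of 11 genes of the aryl hydrocarbon receptor pathway, the sensor of many ring-shaped pollutants, 2 were higher and 2 lower, and CYP1A1 and CYP1B1 were not among them.

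Hypoxia and glycolysis genes were higher in 19 of 37 members and lower in 7 (median 0.27). Hexokinase HK2 had 18.2 and 20.4 CPM in the vehicle libraries and 46.6 and 57.6 CPM in the DPP libraries (log2 fold change 1.43 ± 0.099, adjusted p = 3.15e-06), and the vasodilator peptide ADM had 2.85 and 2.68 CPM under vehicle and 11.7 and 16.1 CPM under DPP (log2 fold change 2.33 ± 0.16, adjusted p = 3.16e-06). Lactate dehydrogenase LDHA changed by 1.19 ± 0.11, the collagen hydroxylase P4HA1 by 1.2 ± 0.086 and the glucose carrier SLC2A1 by 0.63 ± 0.06 (adjusted p = 1.22e-05, 3.55e-06 and 1.79e-05). The DPP libraries were above the vehicle libraries for HK2 and ADM. The 7 lower members became 3 with library size alone.

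Cholesterol synthesis was higher in 14 of 29 members and lower in 3 (median 0.20). DHCR7, which acts in the last steps, had 102 and 115 CPM in the vehicle libraries and 186 and 163 CPM in the DPP libraries (log2 fold change 0.69 ± 0.081, adjusted p = 7.34e-05). Cholesterol export genes were lower in 7 of 16 members and higher in 2 (median -0.23), with a median of -0.15 without DPP library 2. The exporter ABCG1, a target of the sterol receptor LXR, had 9.63 and 10.6 CPM under vehicle and 2.51 and 1.33 CPM under DPP (log2 fold change -2.39 ± 0.27, adjusted p = 9.8e-05), and ABCA1 changed by -0.49 ± 0.073 (adjusted p = 0.000374). For ABCG1 and DHCR7 the groups did not overlap and lay on opposite sides. The sterol regulatory element TCACNCCAC was in 1 of 22 promoters of the cholesterol synthesis list (4.5%), against 0.875% of all promoters. The match was in SREBF2, which was called lower (log2 fold change -0.22).

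Growth genes rose in single cases. Cell cycle and DNA replication genes had 6 of 44 members higher and 2 lower (median 0.42), but 14 higher with library size alone and 20 in a fit of the 2 groups. The share called in this list was 18.2%, below the 36.2% of all genes. CCND1, the cyclin that MAPK signalling induces, had 39.4 and 35.7 CPM under vehicle and 83.6 and 80.4 CPM under DPP (log2 fold change 1.13 ± 0.11, adjusted p = 2.29e-05). HMGA2, a chromatin protein of young stem cells, had 0.923 and 0.882 CPM in the vehicle libraries and 3.66 and 5.91 CPM in the DPP libraries (log2 fold change 2.4 ± 0.26, adjusted p = 3.96e-05). INHBA, an activin subunit, had 2.74 and 2.45 CPM under vehicle and 5.87 and 6.37 CPM under DPP (log2 fold change 1.24 ± 0.19, adjusted p = 0.000377). The TGF-beta list was divided, with 8 of 27 higher and 11 lower. Its median was -0.06, and 0.10 with library size alone. The 8 higher members became 5 without DPP library 2 or vehicle library 2. Both DPP libraries exceeded both vehicle libraries for HMGA2 and INHBA.

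BMP signalling and ID genes had 3 of 25 members higher and 8 lower (median -0.08). With library size alone, 9 of these members were higher and 6 lower (median 0.08). Among ID genes, which block helix-loop-helix factors, ID1 had 0.689 and 1.21 CPM under vehicle and 6.57 and 5.83 CPM under DPP and ID3 3.15 and 2.56 CPM under vehicle and 7.11 and 7.81 CPM under DPP (2.72 ± 0.28 and 1.38 ± 0.22, adjusted p = 3.2e-05 and 0.00069), while ID4 was lower at 1092 and 952 CPM under vehicle and 506 and 527 CPM under DPP (log2 fold change -0.99 ± 0.069, adjusted p = 3.16e-06). The Wnt list had 14 of 37 members lower and 3 higher (median -0.35), with 5 higher without DPP library 1 and a median of -0.21 without vehicle library 1. Its secreted inhibitor DKK1 had 0.642 and 0.486 CPM under vehicle and 3.54 and 5.56 CPM under DPP (log2 fold change 3.0 ± 0.30, adjusted p = 2.24e-05), and the Wnt effector LEF1 changed by 1.08 ± 0.14 (adjusted p = 0.000167). Of 32 glucocorticoid, thyroid and retinoid response genes, 13 were lower and 4 higher (median -0.33), with 2 higher without vehicle library 1. The kinase SGK1 was among the higher ones, with 1.19 and 1.84 CPM under vehicle and 9.58 and 10.7 CPM under DPP (log2 fold change 2.75 ± 0.20, adjusted p = 3.67e-06). RGS4, which dampens G protein signals, had 4.8 and 3.71 CPM under vehicle and 31.8 and 36.6 CPM under DPP (log2 fold change 3.0 ± 0.18, adjusted p = 1.78e-06).

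**Figure D4:**
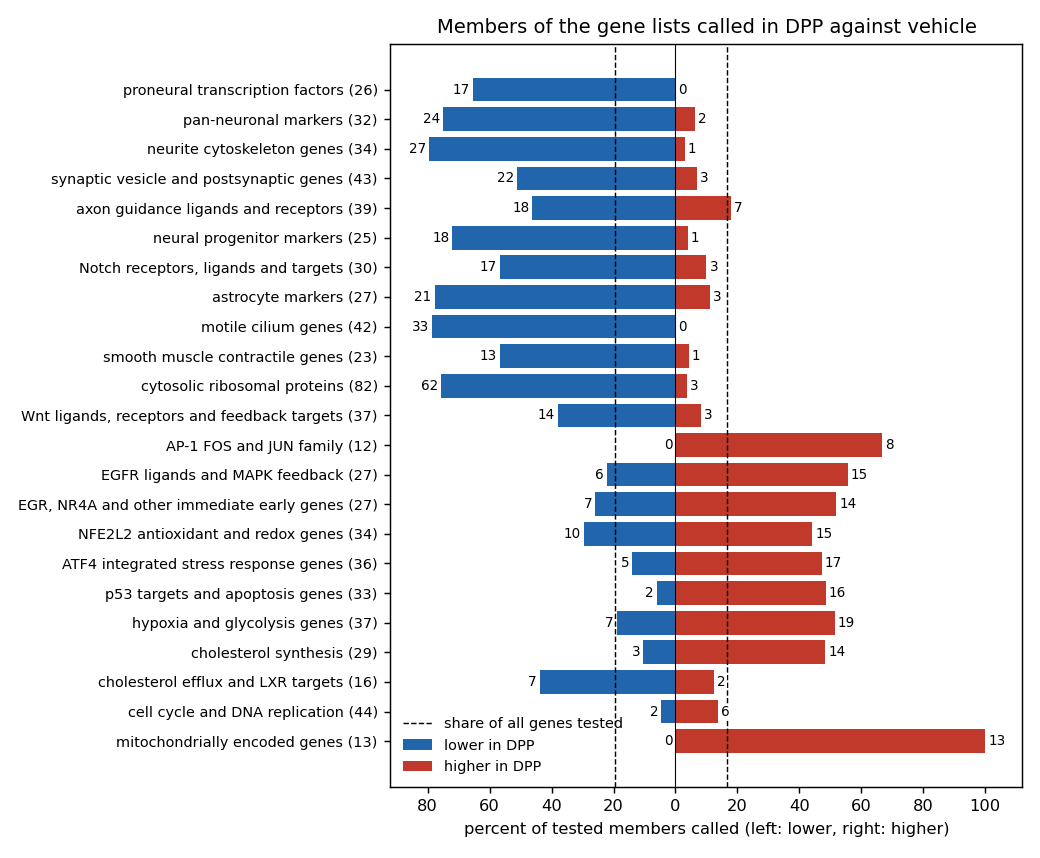
For 23 gene lists, bars give the percent of tested members called lower (left) and higher (right) in DPP against vehicle, with the number called at each bar and the number tested in brackets. Dashed lines mark the shares of all genes, 19.5% lower and 16.7% higher. Neuronal, glial and cilium lists exceed the left line, and AP-1, MAPK and stress lists the right one. The MAPK, immediate early and NFE2L2 lists exceed the left line as well, and the axon guidance list exceeds both.

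Classes of RNA differed between the groups as well. All 13 mitochondrially encoded genes were higher (median 1.69), with ND4, a subunit of respiratory complex I, at 44.4 and 53.6 CPM under vehicle and 129.8 and 164 CPM under DPP (log2 fold change 1.59 ± 0.11, adjusted p = 4.54e-06). MALAT1 fell (log2 fold change -1.74 ± 0.12, adjusted p = 3.86e-06). Of 1875 lncRNA genes tested, 560 were higher (29.9%) and 37 lower (1.97%), with a median of 0.84, whereas the 14905 protein-coding genes had 2327 higher (15.6%), 3605 lower (24.2%) and a median of -0.04. Cytosolic ribosomal protein genes were lower in 62 of 82 members and higher in 3 (median -0.50), with RPLP0 at 1798 and 1848 CPM under vehicle and 852 and 793 CPM under DPP (log2 fold change -1.15 ± 0.066, adjusted p = 1.26e-06). Across 14822 coding genes, whose values are not independent, the fold change and GC content had a Spearman rho of -0.28. The mitochondrial and MALAT1 shares separate vehicle from treated libraries in the whole series. For the lncRNA class, the ribosomal protein genes and GC content this was not examined. The part of all these classes in the changes above was not tested. With a correction for GC content and length, or with protein-coding genes alone, the medians of the neuronal, proneural, cilium, AP-1 and MAPK lists kept their sign. Some other lists did not. The median of the chondroitin proteoglycans and tenascins went from -0.24 to 0.0009 with the correction. That of the imprinted Prader-Willi region genes went from 0.21 to -0.26 with protein-coding genes alone.

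Some called genes were absent or near absent in 1 group. Of the 7049 genes called among 19465 tested, 262 had at most 3 counts over both vehicle libraries, 147 of them lncRNAs and 63 protein-coding. Those with most counts under DPP included ITGAX, an integrin of leukocytes (78 and 94 counts, at least 49.7-fold higher), MMP10, a matrix metalloproteinase (67 and 76, at least 41.3-fold), and PTGS2, the inducible prostaglandin synthase (49 and 70, at least 34.4-fold), each with 0 counts in both vehicle libraries. In the other direction, 48 called genes had at most 3 counts under DPP. MAMDC2 went from 215 and 208 counts to 0 in both DPP libraries, which is at least 163-fold lower, but it also had 0 counts in a DProP library.

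The direct comparisons at the same dose and time left the vehicle libraries out of the contrast and gave fewer calls. Those libraries still entered the shared fit, with its filter, scaling and estimate of the spread. Against DEP, 264 genes were higher under DPP (1.36% of those tested) and 307 lower (1.58%), together 2.93%. Against DProP, 28 were higher (0.144%) and 23 lower (0.118%), together 0.262%. A fit of the 2 groups alone, without the vehicle libraries, gave 979 calls against DEP and 17 against DProP. These comparisons share the DPP libraries with each other and with the comparison above. They depended on single libraries: against DEP, 571 calls became 152 without DEP library 1, 80 without DEP library 2 and 134 without DPP library 2. Against DProP, 51 calls became 132 without DPP library 1, 5 without DPP library 2 and 17 without DProP library 2, and the lower genes became 59 without DProP library 1.

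Some neuronal genes were lower under DPP than under DEP. Of the pan-neuronal markers 10 of 32 were lower and 1 higher, of the proneural factors 9 of 26 lower and 0 higher, and of the motile cilium genes 13 of 42 lower and 0 higher. Among synaptic genes 5 of 43 were lower and 1 higher, among neurite cytoskeleton genes 6 of 34 lower and 0 higher, and among axon guidance genes 2 of 39 lower and 0 higher. DCX had 128 and 146 CPM in DEP and 78.3 and 55.3 CPM in DPP (log2 fold change -1.04 ± 0.13, adjusted p = 0.0043), and was not called in a fit of the 2 groups. ELAVL3 had 37 and 38.4 CPM in DEP and 21 and 14.9 CPM in DPP (log2 fold change -1.07 ± 0.13, adjusted p = 0.00208), and MYT1 had 17.3 and 20.3 CPM in DEP and 8.51 and 5.42 CPM in DPP (log2 fold change -1.43 ± 0.18, adjusted p = 0.00254). Each DPP library was below each DEP library in these 3, which were picked among called genes. The share of all genes with such separation from DEP was not counted. SNAP25 differed by -1.11 ± 0.14, INA by -0.72 ± 0.084 and NHLH2 by -1.36 ± 0.16 (adjusted p = 0.00156, 0.0011 and 0.00128). NEFL was higher (log2 fold change 1.03 ± 0.098, adjusted p = 0.0008). The cilium gene DNAH11 had 39.2 and 40.7 CPM in DEP and 22.3 and 16.7 CPM in DPP (log2 fold change -1.04 ± 0.12, adjusted p = 0.0011).

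Members of several signalling, stress and metabolic lists were higher under DPP than under DEP, and those of others were not called. Members called higher were 6 of 12 for the FOS and JUN genes, 9 of 27 for MAPK (2 lower), 12 of 36 for the integrated stress response, 9 of 34 for NFE2L2, 12 of 37 for hypoxia and glycolysis, and 12 of 29 for cholesterol synthesis, with 0 lower except for MAPK. They were 1 of 27 for heat shock genes, 1 of 28 for chaperones of the endoplasmic reticulum, and 0 of 14 for metallothioneins, 0 of 62 for oxidative phosphorylation and 0 of 36 for PPAR targets and fatty acid oxidation. HMGA2 had 0.823 and 0.679 CPM in DEP and 3.66 and 5.91 CPM in DPP (log2 fold change 2.67 ± 0.26, adjusted p = 0.0008), GDF15 5.55 and 5.02 CPM in DEP and 15.9 and 22 CPM in DPP (log2 fold change 1.84 ± 0.21, adjusted p = 0.0011), and HBEGF 7.56 and 6.18 CPM in DEP and 18 and 16.6 CPM in DPP (log2 fold change 1.33 ± 0.14, adjusted p = 0.000879). In all 3, also picked among called genes, the DPP libraries were the higher ones. HK2 differed by 0.83 ± 0.096, HMOX1 by 0.94 ± 0.11 and SLC1A5 by 1.11 ± 0.11 (adjusted p = 0.0011, 0.00198 and 0.000879). SLC12A8, a carrier of the cation-chloride cotransporter family, had 4.13 and 3.55 CPM in DEP and 11.4 and 11.2 CPM in DPP (log2 fold change 1.56 ± 0.16, adjusted p = 0.000879). Among the lower genes were the phosphatase DUSP26 (log2 fold change -1.79 ± 0.21, adjusted p = 0.0011) and ABCG1 (log2 fold change -1.69 ± 0.27, adjusted p = 0.00936), which was not called without DEP library 2 (-1.401) or in a fit of the 2 groups. Mitochondrially encoded and ribosomal protein genes had 0 members called in this comparison.

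Against DProP few members were called. Cholesterol synthesis genes had 0 of 29 members higher and 1 lower (median -0.18). HBEGF had 6.04 and 5.77 CPM in DProP and 18 and 16.6 CPM in DPP (log2 fold change 1.55 ± 0.14, adjusted p = 0.00209), a call kept in every alternative run. HMGA2 had 1.23 and 1.13 CPM in DProP and 3.66 and 5.91 CPM in DPP (log2 fold change 2.01 ± 0.25, adjusted p = 0.00897), but lost the call without DPP library 2 (1.62), without DProP library 2 (1.95) and in a fit of the 2 groups. EGR2 differed by 1.21 ± 0.15 (adjusted p = 0.00897) and lost its call without DPP library 2 (1.08). FOSL1 differed by 1.05 ± 0.17, INHBA by 1.1 ± 0.18 and HMOX1 by 0.7 ± 0.11 (adjusted p = 0.0323, 0.0324 and 0.0357). These 3 calls were lost without DPP library 2 (0.85, 1.04 and 0.52) and without DProP library 2 (1.096, 1.13 and 0.62), and those of FOSL1 and INHBA also without DProP library 1 (1.01 and 1.08). All 3 were also lost in a fit of the 2 groups. The proneural factor ST18 was lower (log2 fold change -0.99 ± 0.13, adjusted p = 0.0179), but was not called without DPP library 2 (-0.78) or without DProP library 2 (-0.97), nor in a fit of the 2 groups. The pan-neuronal markers had 0 of 32 members called. For ELAVL3 the difference was -0.34, with an unadjusted 95% interval of -0.63 to -0.04 (adjusted p = 0.343), and for DCX it was -0.41, with an interval of -0.71 to -0.11 (adjusted p = 0.251). Both were called without DPP library 1, at -0.604 for ELAVL3 and -0.68 for DCX, and DESeq2 called DCX with all libraries (-0.414).

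**Figure D5:**
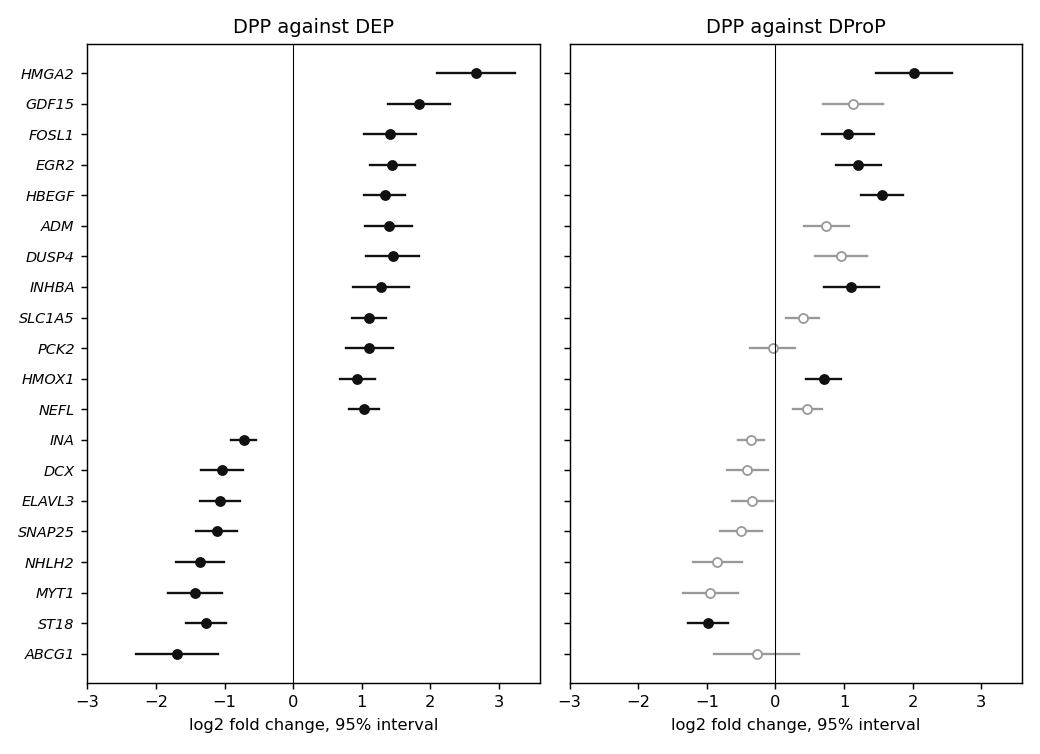
Log2 fold change with 95% interval of 20 genes in DPP against DEP (left) and DPP against DProP (right), black where the adjusted p is under 0.05 and grey and open elsewhere. The 20 genes were picked among those called against DEP, and 7 of them (HMGA2, FOSL1, EGR2, HBEGF, INHBA, HMOX1 and ST18) were called against DProP.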

How the data were processed

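The authors deposited raw counts with 1 row per NCBI gene identifier; they are not scaled or filtered. Per the submitters' processing notes, the build was GRCh38 and the tools were HISAT2 2.1.0, StringTie 2.1.3b, Trimmomatic 0.38, FastQC, R 4.3.2 and edgeR 4.0.9; the step that made the counts, the annotation, the use of strand and how multiply mapped reads were treated are not given in the sources used. Overlapping and near-identical genes may therefore share reads. Of 46427 genes, 17765 had no count in any library, and 44698 matched RefSeq by identifier.

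Counts were tested with edgeR 4.0.16 in R 4.3.3. Genes were kept with filterByExpr by group, libraries were scaled by TMM, and all 10 libraries entered 1 robust quasi-likelihood fit with a mean for each group (5 residual degrees of freedom). With 2 libraries per group, p values rest on the spread pooled over the 5 groups (common biological coefficient of variation 9.40%). Benjamini-Hochberg adjustment was made over all 19465 genes within a comparison, with a threshold of 0.05. CPM values use the TMM factors. Values after ± are standard errors, the size of the log2 fold change divided by the square root of F.

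Gene lists, 51 in number with 1351 tested genes, are described by counts and medians and were not tested as sets. The members, lists and genes named were chosen with earlier results of these data known. Named genes were the 12 largest changes in each direction with a mean of at least 1 CPM and separate groups, the first 3 genes of each list, up to 6 more with the smallest p, the 5 largest in each direction against DEP and DProP, near-absent genes, and further members by value where a list is described. Bounds for genes at 0 use a floor of 3 counts over the group and cover counting error only.

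Alternatives were DESeq2 1.42.0, limma-voom (limma 3.58.1), a fit of the 2 groups, a block for the replicate number, scaling by relative log expression or by library size alone, testing without a filter or at 1 CPM in 2 libraries, a GC and length correction, a 2-fold minimum and leaving out each library. Protein-coding genes alone were added after the data were seen. On simulated counts for DPP against vehicle, the test called 43.8% of 64 genes with a log2 shift of 0.5. It called 98.6% of 70 with 1, 100% of 66 with 2 and 0.0268% of 18674 unshifted genes. Unlike the data, every simulated gene had the same spread and only a small set of well-counted genes was shifted. These shares are thus not rates for the real comparison.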

Additional observations from a re-analysis of the deposited data

How the results depend on the processing

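For DPP against vehicle, library size alone gave 5820 higher and 2200 lower genes, and a 2-fold minimum 1733 (1086 higher, 647 lower). Leaving out each library gave 4343 to 6038 genes (1945 to 2622 higher, 2398 to 3416 lower). Against DEP, DESeq2 called 1132 (538 higher, 594 lower), a fit of the 2 groups 979 (545 higher) and a 2-fold minimum 137 (40 higher, 97 lower). Leaving out each library gave 80 to 747 (34 to 288 higher, 46 to 459 lower). Against DProP, a stricter filter gave 146 (61 higher, 85 lower), DESeq2 400 (184 higher, 216 lower), a fit of the 2 groups 17 (13 higher, 4 lower) and a 2-fold minimum 23 (12 higher, 11 lower). Lower genes numbered 36 with library size alone, 37 without a filter and 11 with limma-voom. Leaving out each library gave 5 to 132 (4 to 38 higher, 1 to 94 lower). The cause of these shifts was not tested. A lone library was assumed to vary like the other groups.

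Shared replicate numbers gave no sign of pairing: over genes, the difference between replicates correlated at -0.0465 to 0.0471 across the 10 pairs of groups. With the replicate number as a block, 6780 genes were called against vehicle, 529 against DEP and 36 against DProP (13 lower), and no named gene lost its call.

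Library size alone turned the sign of 8 of 50 list medians and that of SYT1 (0.070). In the simulation, most shifts of 0.5 were missed with these library sizes, 2 libraries per group and the same spread for every gene. The real genes differ in spread, so this share need not hold for them. The part of depth was not tested.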
